A study of Homo sapiens with 12 samples.

Results

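A set of 9 genes of cyclic AMP signalling in the heart muscle cell were followed in RNA sequencing of cardiomyocytes made from the human embryonic stem cell line RUES2. They are the Gs-coupled receptors GLP1R, VIPR1, VIPR2 and ADRB1, the Gi-coupled receptor CHRM2, the adenylyl cyclases ADCY5 and ADCY6, and the phosphodiesterases PDE3A and PDE4D, so 9 of the 60583 genes listed, taken by name. The list was selected on measured values of these libraries, their levels by scaffold, replicate number and technical library, and which gene was picked for which value is not given. What follows on the scaffolds and the replicate numbers is therefore a description of the 9 genes.

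The tested cells were unedited (genotype WT) RUES2 cardiomyocytes at day 50, cultured for 3 days on electrospun scaffolds of 9.75% PEDOT:PSS/PVA, a conductive polymer blend, and the comparison cells were the same kind of cells on scaffolds of 8% PVA alone, which does not conduct. Both groups had 3 biological replicates, numbered 1 to 3, with 2 technical libraries each, and all cells were kept in RPMI with B27 and insulin. All cells are of 1 embryonic stem cell line, and the labels do not say whether a replicate number marks a separate differentiation or what separates technical libraries. The scaffolds differ in their composition as well as in conductivity, so those cannot be told apart. The P-values below measure the spread between these samples, which may be technical.

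Receptors that couple to Gs stimulate adenylyl cyclase, which makes cyclic AMP, and receptors that couple to Gi restrain it. Cyclic AMP activates protein kinase A, which phosphorylates calcium channels, phospholamban and sarcomere proteins, and it opens the HCN pacemaker channels directly. Phosphodiesterases break cyclic AMP down and keep it in local pools. In the heart the beta-1 adrenoceptor ADRB1 is the main receptor for noradrenaline, the muscarinic receptor CHRM2 carries the slowing signal of the vagus nerve, and ADCY5 and ADCY6 are the main cyclases of the myocyte. GLP1R binds glucagon-like peptide 1, while VIPR1 and VIPR2 bind vasoactive intestinal peptide.

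The windows around the start sites of GLP1R and VIPR2 are shown because these are the only members with a scaffold call in any fit described here. They are the windows at the gene edge of the deposited table. Each runs from 250 bases before to 50 bases after the start on the gene's own strand, 5′ to 3′, from RefSeq on GRCh38.p14, and capitals mark GC boxes (GGGCGG or its reverse complement CCGCCC). The GLP1R window is chr6:39048531-39048830 on the plus strand and the VIPR2 window is chr7:159144818-159145117 on the minus strand.
GLP1R: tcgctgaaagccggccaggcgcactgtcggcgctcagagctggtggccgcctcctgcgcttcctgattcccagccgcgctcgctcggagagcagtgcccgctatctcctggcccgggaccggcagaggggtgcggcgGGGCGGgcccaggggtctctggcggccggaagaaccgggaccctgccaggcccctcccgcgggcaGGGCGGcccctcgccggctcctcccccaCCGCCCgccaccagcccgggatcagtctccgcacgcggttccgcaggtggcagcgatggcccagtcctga
VIPR2: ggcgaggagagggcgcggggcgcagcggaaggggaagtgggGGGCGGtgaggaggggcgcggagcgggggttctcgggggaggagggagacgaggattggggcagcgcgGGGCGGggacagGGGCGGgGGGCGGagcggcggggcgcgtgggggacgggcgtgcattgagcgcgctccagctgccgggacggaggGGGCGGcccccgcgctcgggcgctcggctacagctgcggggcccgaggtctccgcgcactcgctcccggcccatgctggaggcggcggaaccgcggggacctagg
The GLP1R window held 3 GC boxes and was 75.3% G and C, and the printed VIPR2 window held 5 GC boxes and was 79.7% G and C. RefSeq gives VIPR2 another start site inside the gene, whose window (chr7:159097155-159097454, not printed) held 0 GC boxes and was 54% G and C. GC boxes stood in 45% of 35116 RefSeq windows of the same length, so they are common. The cAMP response element TGACGTCA was searched on both strands, as was its core TGACG (reverse complement CGTCA), which lies inside it. The full element was in none of 20 windows of the 8 members with an entry, and it stood in 1.85% of all windows. At that share, none in 20 windows says little. Many of these windows belong to PDE4D. The PDE3A window (chr12:20571829-20572128) lies inside the gene, as do the windows of ADCY5 and PDE4D, so their gene-edge starts were not searched. The core was in neither printed window, against 24.6% of all windows. A missing match says only that these letters are not in the window. ADCY6 had no entry.

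Depth ran from 19.1 to 30.95 M counts a library (median 24.1 M) and from 44.5 to 57.5 M counts a sum. Levels below are CPM, counts of a gene per M counts of its library, scaled by TMM (trimmed mean of M-values), and a sum joins the 2 technical libraries of a replicate. Mitochondrial genes took 3.98 to 5.20% of counts on PEDOT and 4.00 to 5.48% on PVA. Markers of the labelled cell type were abundant. All 10 cardiomyocyte markers were tested, and together they held 65061, 85973 and 80053 CPM on PEDOT in replicates 1, 2 and 3, and 56183, 73102 and 76203 CPM on PVA. The 8 fibroblast markers held 6752, 842 and 3620 CPM on PEDOT and 3693, 817 and 3222 CPM on PVA, lowest in replicate 2 on both scaffolds and higher on PEDOT mainly in replicate 1. Most of that sum was the collagen genes COL1A1, COL1A2 and COL3A1, and POSTN of the same list ran otherwise, 1.55 higher on the log2 scale in replicate 2 than in replicate 1. Endothelial markers summed to 20.1 to 33.8 CPM on PEDOT and 30.5 to 33.5 CPM on PVA, and immune markers to 1.98 to 2.21 CPM on PEDOT and 2.49 to 2.62 CPM on PVA, with CD3E and MS4A1 at 0 in every library. Sinus node and atrial markers summed to 1537, 2165 and 2057 CPM on PEDOT and 1430, 2384 and 2274 CPM on PVA. Most of that was MYL4, HCN4 and NPPA. SHOX2 ran otherwise, at 24.6, 5.47 and 24.5 CPM on PEDOT and 24.9, 5.59 and 24.0 CPM on PVA. TBX18 was also lowest in replicate 2, and TBX3 in replicate 1. Endoderm epithelium markers summed to 1374, 916 and 920.4 CPM on PEDOT and 1407, 965 and 1196 CPM on PVA. Nearly all of that was the keratin genes KRT8 and KRT18. FOXA2 reached at most 0.217 CPM and AFP 0.537 CPM in a sum. These genes were named after their values were seen. In bulk samples, fewer cells of a type and less RNA per cell cannot be told apart.

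Per kilobase of exons, the 9 members covered the range from ADRB1 at the top to VIPR1 at the bottom. Over the 6 sums, ADRB1 averaged 79.4 ± 4.94 CPM per kb (SD, n = 6) and CHRM2 46.4 ± 6.42 CPM per kb. Every ADRB1 sum lay above every CHRM2 sum. In CPM without the length the order was reversed, at 322.5 to 462.5 CPM for CHRM2 and 229.4 to 265.9 CPM for ADRB1. The merged exons span 8.322 kb for CHRM2 and 3.039 kb for ADRB1, so rankings and shares per kilobase depend on that length. ADCY6 (21.2 ± 3.14 CPM per kb) and ADCY5 (21.2 ± 2.81 CPM per kb) overlapped, and both lay below CHRM2 and above the rest. PDE4D (8.86 ± 0.365 CPM per kb), VIPR2 (7.22 ± 1.26 CPM per kb), PDE3A (4.77 ± 2.14 CPM per kb) and GLP1R (2.15 ± 0.833 CPM per kb) followed, each overlapping its neighbour in that order. VIPR1, at 0.481 ± 0.323 CPM per kb, was below GLP1R in every sum. Among all 21298 genes tested, ADRB1 stood at percentile 98.8, CHRM2 at 97.3 and VIPR1 at 21.9.

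**Figure D1:**
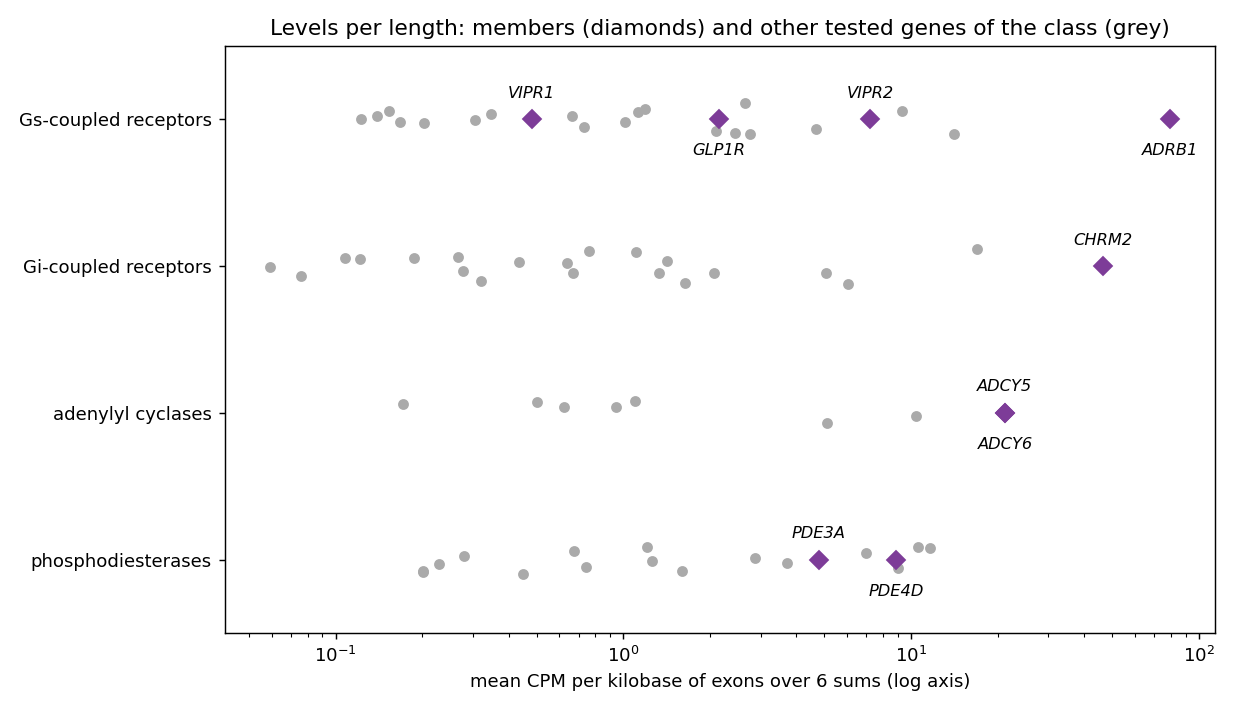
Mean level of the members (diamonds) and of the other tested genes of each class (grey dots) in CPM per kilobase of exons over 6 sums, on a log axis. ADRB1 (79.4 CPM per kb) and CHRM2 (46.4 CPM per kb) lie to the right of every other receptor drawn, and ADCY5 and ADCY6 coincide at 21.2 CPM per kb. PDE4D (8.86 CPM per kb) and PDE3A (4.77 CPM per kb) lie among the other genes of the phosphodiesterase list, which includes the non-catalytic subunit gene PDE6D.

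ADRB1 and CHRM2 had the highest levels per length of all tested receptors of their classes. The next highest Gs-coupled receptor of the list was the parathyroid hormone receptor PTH1R at 14.1 CPM per kb, and the next Gi-coupled receptor was the sphingosine phosphate receptor S1PR1 at 17.03 CPM per kb. Among the cyclases, ADCY9 followed ADCY5 and ADCY6 at 10.4 CPM per kb. In the phosphodiesterase list, PDE1C (11.7 CPM per kb) and PDE7A (8.99 CPM per kb) had higher means than both members. So did PDE6D (10.6 CPM per kb), which encodes a non-catalytic subunit. These genes were named after their levels were seen. Within the VIP receptors, VIPR1 made up 5.57 ± 3.97% of the counts per kilobase on PEDOT and 6.46 ± 2.85% on PVA (SD, n = 3 each).

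Between scaffolds, VIPR2 and GLP1R differed most among the members whose differences kept 1 direction, both toward more RNA on PEDOT. In the fit of 3 PEDOT against 3 PVA sums, no gene of 21298 passed an adjusted p of 0.05 (0%, edgeR's quasi-likelihood test with Benjamini-Hochberg adjustment), DESeq2 gave 0 as well, and 190 genes (0.892%) had an unadjusted p under 0.05. Sums of the same replicate number deviated together, so a second kind of fit, blocked by that number, compares PEDOT with PVA inside each pair. That pairing was read from the values and is not stated in the labels. The blocked fit called 57 genes (0.268%), 15 higher (0.0704%) and 42 lower (0.197%) on PEDOT. Of the 9 members, 2 were called higher, VIPR2 and GLP1R, and none lower. At an unadjusted p under 0.05 the blocked fit held 3 members, against 8.32% of all genes. In 5 of the 9 members the 3 pairs had the same direction, against 28.9% of all genes, with 4 members higher (13.3%) and 1 lower (15.6%) on PEDOT. Because the members were listed with results known, nothing is read from these counts.

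**Figure D2:**
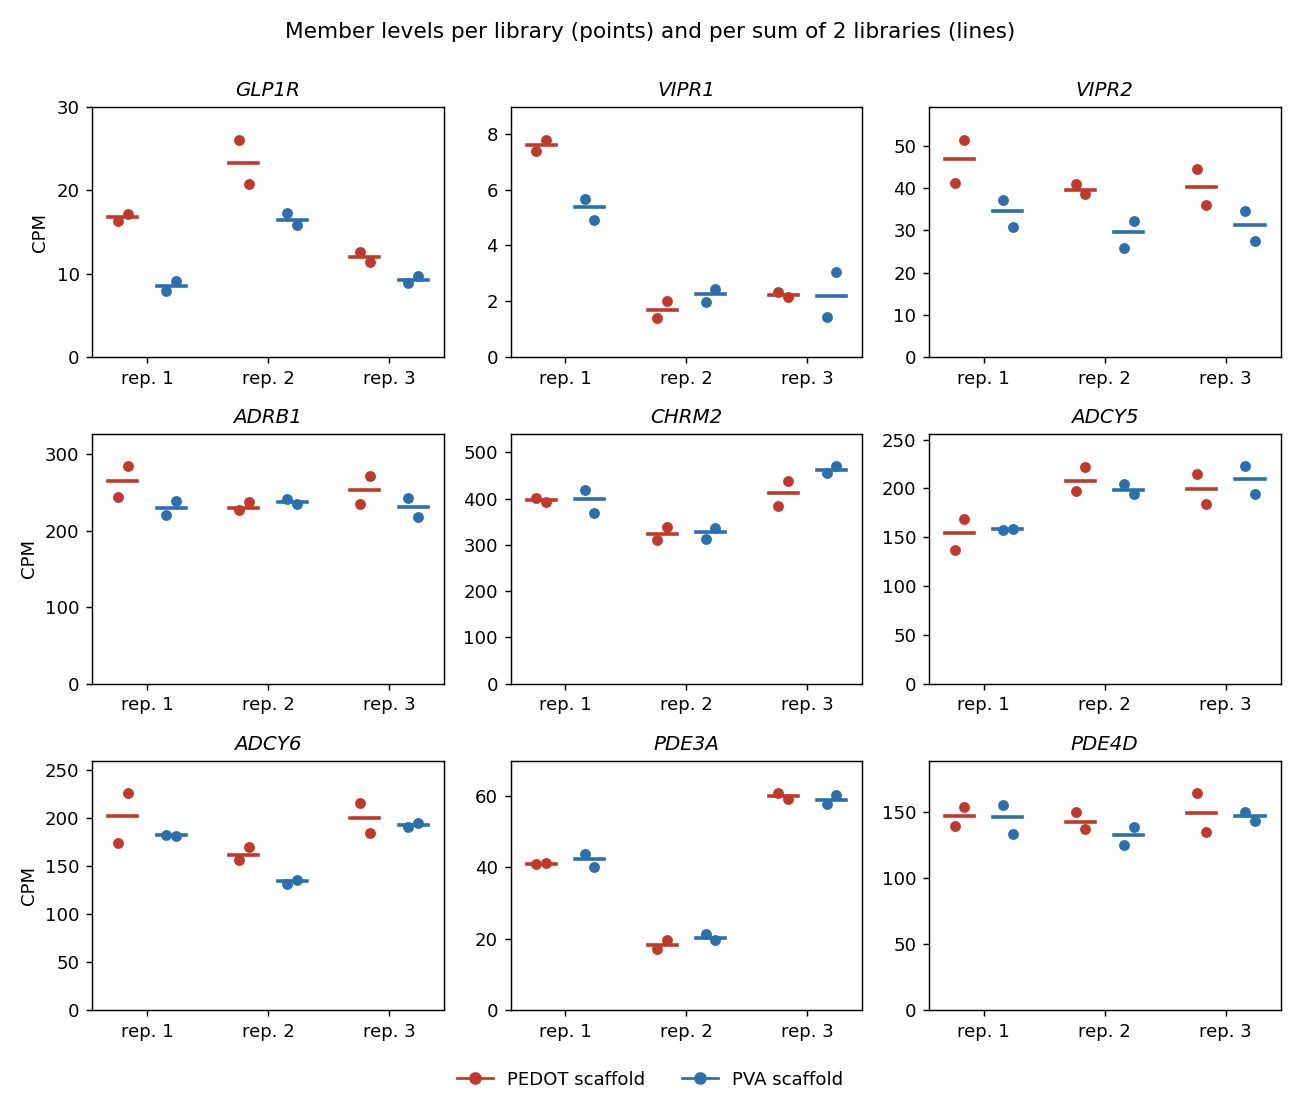
Level of each member in CPM (linear axes from 0) in each technical library (points) and each sum of the 2 libraries (lines), by replicate number, with PEDOT in red left of PVA in blue. For GLP1R and VIPR2 both PEDOT libraries lie above both PVA libraries in each of the 3 replicate numbers, while PDE3A sits near 19.3 CPM in replicate 2 and 59.4 CPM in replicate 3 on both scaffolds. The share of all genes with libraries so separated was not counted.

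GLP1R lies at chr6:39048781-39091303 on the plus strand (hg38). Its sums were 16.8, 23.3 and 12.04 CPM on PEDOT in replicates 1, 2 and 3, against 8.51, 16.5 and 9.29 CPM on PVA. The groups overlapped, since replicate 2 was the highest on both scaffolds and its PVA sum lay above the PEDOT sum of replicate 3. Per library, replicate 1 gave 16.4 and 17.1 CPM on PEDOT and 7.96 and 9.15 CPM on PVA, replicate 2 gave 26.1 and 20.8 CPM on PEDOT and 17.3 and 15.8 CPM on PVA, and replicate 3 gave 12.6 and 11.5 CPM on PEDOT and 8.87 and 9.77 CPM on PVA. Within each number, both PEDOT libraries were above both PVA libraries. The log2 differences were 0.97, 0.50 and 0.37, each larger than the largest difference between technical libraries of 1 sum (0.32). The former are differences of sums and the latter of single libraries. How many of all genes were apart in these ways was not counted, so nothing is read from it.

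GLP1R had a fitted log2 fold change of 0.60 ± 0.33 (SE) without the block, with a 95% interval of -0.17 to 1.38 and an adjusted p of 0.999986 (edgeR quasi-likelihood). With the block it was 0.61 ± 0.11, or 1.53-fold (95% interval 1.30 to 1.81-fold), with an adjusted p of 0.0390 in edgeR's quasi-likelihood test. The call rested on particular libraries. It was lost without either PEDOT library of replicate 1, without library 1 of PEDOT replicate 2, without either PEDOT library of replicate 3, without library 3 of PVA replicate 1, without library 3 of PVA replicate 2 and without library 1 of PVA replicate 3, with edgeR adjusted p-values of 0.0543 to 0.146 over these fits. It was also lost without replicate number 2 on both scaffolds (edgeR adjusted p = 0.229) and kept without number 1 (0.0385) or number 3 (1.63e-05). Over all 22 blocked fits, 10 called GLP1R, and the log2 fold change lay between 0.44 and 0.73.

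VIPR2 lies at chr7:159028175-159144867 on the minus strand. Its sums were 46.9, 39.6 and 40.3 CPM on PEDOT and 34.6, 29.5 and 31.3 CPM on PVA in replicates 1, 2 and 3. VIPR2 was the only member whose PEDOT sums all lay above the PVA sums, as 2.28% of the genes tested did, while 2.31% lay wholly below and 4.6% lay wholly on either side. Its libraries read 41.4 and 51.5 CPM on PEDOT against 37.3 and 30.7 CPM on PVA in replicate 1, 41.1 and 38.7 CPM on PEDOT against 26.0 and 32.2 CPM on PVA in replicate 2, and 44.6 and 36.1 CPM on PEDOT against 34.6 and 27.5 CPM on PVA in replicate 3. The log2 differences within the numbers were 0.44, 0.42 and 0.37, close to one another and just above the largest technical difference of 0.33. Here too the share of all genes with such differences was not counted. An exact permutation test of 3 against 3 cannot give a p below 0.1.

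For VIPR2 the log2 fold change without the block was 0.41 ± 0.11 (SE), with a 95% interval of 0.15 to 0.66, an unadjusted p of 0.00685 and an adjusted p of 0.999986 (edgeR quasi-likelihood). With the block it was 0.41 ± 0.068, or 1.33-fold (95% interval 1.20 to 1.47-fold), with an adjusted p of 0.0262. The call was lost without either PEDOT library of replicate 1, without library 1 of PEDOT replicate 3, without library 3 of PVA replicate 1, without library 2 of PVA replicate 2 and without library 3 of PVA replicate 3, at edgeR adjusted p-values of 0.0519 to 0.146. It was lost without replicate number 2 (edgeR adjusted p = 0.126) and kept without number 1 (0.0189) or number 3 (0.00892). Of the 22 blocked fits, 12 called VIPR2, with log2 fold changes of 0.36 to 0.47.

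Cell type markers also differed between scaffolds. The summed fibroblast markers differed by 0.87, 0.04 and 0.17 on the log2 scale (PEDOT minus PVA, replicates 1, 2 and 3), the cardiomyocyte markers by 0.21, 0.23 and 0.07, and the smooth muscle and pericyte markers by -0.21, -0.32 and -0.39. That last sum was mostly ACTA2 and RGS5, both called lower on PEDOT in the blocked fit, while 3 of the 8 genes had a log2 fold change above 0 and the blocked median was -0.07. ACTA2, smooth muscle actin, averaged 848 ± 208 CPM on PEDOT and 1120.2 ± 254 CPM on PVA (SD, n = 3 each), at a blocked log2 fold change of -0.40 ± 0.07 (SE) and an edgeR adjusted p of 0.0334. Among the cardiomyocyte markers 1 of 10 was called, the beta myosin heavy chain gene MYH7, with 1130.3 ± 402 CPM on PEDOT and 614 ± 356 CPM on PVA (blocked log2 fold change 0.95 ± 0.17, edgeR adjusted p = 0.0382). Leaving out 1 library kept the MYH7 call in 4 of 12 fits and the ACTA2 call in 5 of 12. Both were lost without either PEDOT library of replicate 1, library 3 of PEDOT replicate 3, library 3 of PVA replicate 1, library 2 of PVA replicate 2 or library 1 of PVA replicate 3. MYH7 was also lost without library 1 of PEDOT replicate 2 or library 3 of PVA replicate 2, and ACTA2 without library 1 of PEDOT replicate 3. The highest edgeR adjusted p-values over these fits were 0.193 for MYH7 and 0.208 for ACTA2. Without the block none of these markers was called. ACTA2, MYH7, TTN, MYH6 and POSTN were named after their values were seen. Neural markers differed by -0.58, -0.59 and -0.35 at sums of 4.76 to 26.8 CPM on PEDOT and 7.16 to 40.1 CPM on PVA, and 1 of the 4 tested was called lower on PEDOT with the block. The part of these shifts in the GLP1R and VIPR2 differences was not tested.

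**Figure D3:**
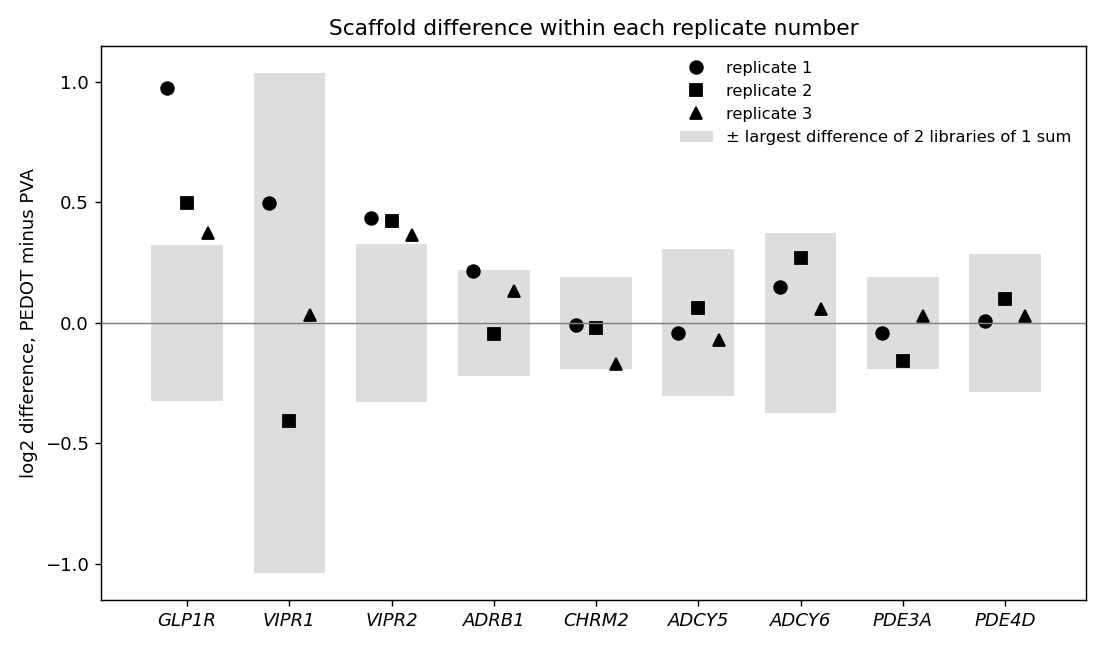
Log2 difference of each member between the PEDOT and PVA sums of replicates 1, 2 and 3 (circle, square, triangle), with a grey bar reaching as far on each side of 0 as the largest difference between 2 technical libraries of 1 sum. All 3 points of GLP1R (0.97, 0.50, 0.37) and of VIPR2 (0.44, 0.42, 0.37) lie above their bars, and the points of the other 7 members lie within theirs. Points compare sums and bars compare single libraries, and the share of all genes with points beyond the bar was not counted.

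VIPR1, the sister receptor on chromosome 3 (chr3:42489299-42537573), did not follow VIPR2. Its sums were 7.60, 1.68 and 2.23 CPM on PEDOT and 5.37, 2.24 and 2.18 CPM on PVA, so the scaffold difference had no fixed direction (0.50, -0.41 and 0.03 on the log2 scale). With the block the log2 fold change was 0.09, with a 95% interval of -0.30 to 0.48 and an edgeR adjusted p of 0.951. Whether the response of VIPR1 and VIPR2 differed was not tested.

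The more abundant receptors differed little between scaffolds. ADRB1 (chr10:114043866-114046904) had 265.9, 230.4 and 253.7 CPM on PEDOT, against 229.4, 237.9 and 231.5 CPM on PVA. PEDOT was higher in 2 of the 3 numbers, and the blocked log2 fold change of 0.10 had a 95% interval of -0.05 to 0.25 (edgeR adjusted p = 0.788). CHRM2 (chr7:136868669-137020255) had 396.3, 322.5 and 411.3 CPM on PEDOT, against 398.9, 327.0 and 462.5 CPM on PVA. It was slightly lower on PEDOT in all 3 numbers, at a blocked log2 fold change of -0.07 with an interval of -0.21 to 0.08 (edgeR adjusted p = 0.875). The upper bounds were 1.19-fold for ADRB1 and 1.05-fold for CHRM2 with the block, and 1.24-fold and 1.23-fold without it. Whether their response differed from that of VIPR2 was not tested.

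The cyclases and phosphodiesterases gave no scaffold call either. ADCY5 (chr3:123282296-123449758) had 154.0, 207.4 and 199.5 CPM on PEDOT, against 158.6, 198.7 and 209.5 CPM on PVA, with a blocked log2 fold change of -0.02 (95% interval -0.15 to 0.12). ADCY6 (chr12:48766194-48789037) had 202.0, 161.4 and 199.8 CPM on PEDOT, against 182.4, 134.0 and 192.2 CPM on PVA. It was higher on PEDOT in all 3 numbers, as 13.3% of the genes tested were, at a blocked log2 fold change of 0.16 (interval 0.02 to 0.30, unadjusted p = 0.0318, edgeR adjusted p = 0.548). The share of ADCY5 in the counts per kilobase of both cyclases was lower on PEDOT in all 3 numbers, at 41.9, 54.9 and 48.6% on PEDOT and 45.2, 58.4 and 50.8% on PVA. The differences were smaller than the spread between replicate numbers.

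PDE3A (chr12:20369245-20684381), a phosphodiesterase that cyclic GMP inhibits and that acts near the sarcoplasmic reticulum, had 41.0, 18.2 and 60.0 CPM on PEDOT, against 42.3, 20.4 and 58.8 CPM on PVA. Its blocked log2 fold change was -0.05 (95% interval -0.20 to 0.10). PDE4D (chr5:58969038-60522120), a cAMP-specific phosphodiesterase bound in receptor and ryanodine channel complexes, had 146.7, 142.0 and 149.2 CPM on PEDOT, against 146.0, 132.7 and 146.4 CPM on PVA, and a blocked log2 fold change of 0.04 (interval -0.09 to 0.18). Its share among PDE4A to PDE4D, per kilobase, was higher on PEDOT in all 3 numbers, at 49.9, 62.9 and 59.6% on PEDOT and 47.6, 58.8 and 55.6% on PVA. PDE3A made up 76.4 ± 10.8% of PDE3A and PDE3B on PEDOT and 76.5 ± 9.70% on PVA (SD, n = 3 each). The median log2 fold change of the 9 members without the block was 0.10, and that of all genes tested was -0.006.

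In 7 of the 9 members, all but VIPR2 and ADRB1, the replicate number took up more of the variance of the log2 sums than the scaffold did. That is common, since the medians over all genes tested were 70.4% for the replicate number and 6.10% for the scaffold. The replicate number also has more levels than the scaffold, which by itself raises its part. Of the 9 members, 6 were called for the replicate number with scaffold as a covariate (edgeR quasi-likelihood F test, adjusted p under 0.05), against 31.8% of all genes. PDE3A was the clearest. Its levels were 40.8 and 41.2 CPM on PEDOT and 43.7 and 40.0 CPM on PVA in replicate 1, 17.2 and 19.6 CPM on PEDOT and 21.3 and 19.7 CPM on PVA in replicate 2, and 60.7 and 59.1 CPM on PEDOT and 57.7 and 60.0 CPM on PVA in replicate 3. The 3 numbers did not overlap, replicate 3 was 3.08 times replicate 2 by the means (59.4 and 19.3 CPM), and the replicate number took up 99.5% of the variance of the log2 sums (edgeR adjusted p = 2.80e-08).

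VIPR1 was high in replicate 1, with 7.39 and 7.79 CPM on PEDOT and 5.68 and 4.92 CPM on PVA, and low elsewhere, with 1.38 to 2.33 CPM in the other PEDOT libraries and 1.44 to 3.04 CPM in the other PVA libraries. The mean was 6.48 CPM in replicate 1, 1.96 CPM in replicate 2 and 2.21 CPM in replicate 3 (edgeR adjusted p = 3.05e-05). GLP1R was highest in replicate 2 (19.9 CPM, against 12.6 in replicate 1 and 10.7 in replicate 3, edgeR adjusted p = 3.37e-04). CHRM2 and ADCY6 were lowest in replicate 2. CHRM2 averaged 324.7 CPM there, against 397.6 CPM in replicate 1 and 436.9 CPM in replicate 3 (edgeR adjusted p = 0.00316), and ADCY6 averaged 147.7 CPM, against 192.2 and 196.0 CPM in replicates 1 and 3 (edgeR adjusted p = 0.00197). ADCY5 was lowest in replicate 1, at 156.3 CPM, against 203.0 and 204.5 CPM in replicates 2 and 3 (edgeR adjusted p = 0.00205).

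VIPR2 (edgeR adjusted p = 0.0840), PDE4D (0.482) and ADRB1 (0.753) were not called for the replicate number. ADRB1 stayed within 218.3 to 284.4 CPM over all 12 libraries. For VIPR2 the scaffold took up 80.0% of the variance of the log2 sums and the replicate number 19.6%, while for the median gene these were 6.10% and 70.4%. For GLP1R they were 36.7% and 56.9%. The replicate numbers also differed in cell type markers. All 8 fibroblast markers and 9 of 10 cardiomyocyte markers were called, against 31.8% of all genes. The part of the markers in the members' differences was not tested.

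Some ligand transcripts also differed between replicate numbers. VIP, which encodes the peptide that VIPR1 and VIPR2 bind, had 133.6 and 137.0 CPM on PEDOT and 103.8 and 77.9 CPM on PVA in replicate 1. In replicate 2 it had 0.302 and 1.58 CPM on PEDOT and 1.42 and 1.48 CPM on PVA, and in replicate 3 it had 5.23 and 12.7 CPM on PEDOT and 16.8 and 19.4 CPM on PVA (edgeR adjusted p for the replicate number = 3.93e-09). GCG, the precursor of glucagon and glucagon-like peptide 1, did not pass the filter on low counts and was chosen after its values were seen. It had 185 and 158 counts on PEDOT and 217 and 114 on PVA in replicate 1, no count in the 4 libraries of replicate 2, and 9 and 0 counts on PEDOT and 0 and 3 on PVA in replicate 3. A count of 0 in these replicate 2 libraries allows up to 0.129 to 0.131 CPM on PEDOT and 0.114 to 0.152 CPM on PVA, from counting error only. Transthyretin (TTR), a marker of endoderm also chosen after its values were seen, had 252 and 220 counts on PEDOT and 231 and 188 on PVA in replicate 1, and 0 to 5 in the other PEDOT libraries and 0 to 5 in the other PVA libraries.

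**Figure D4:**
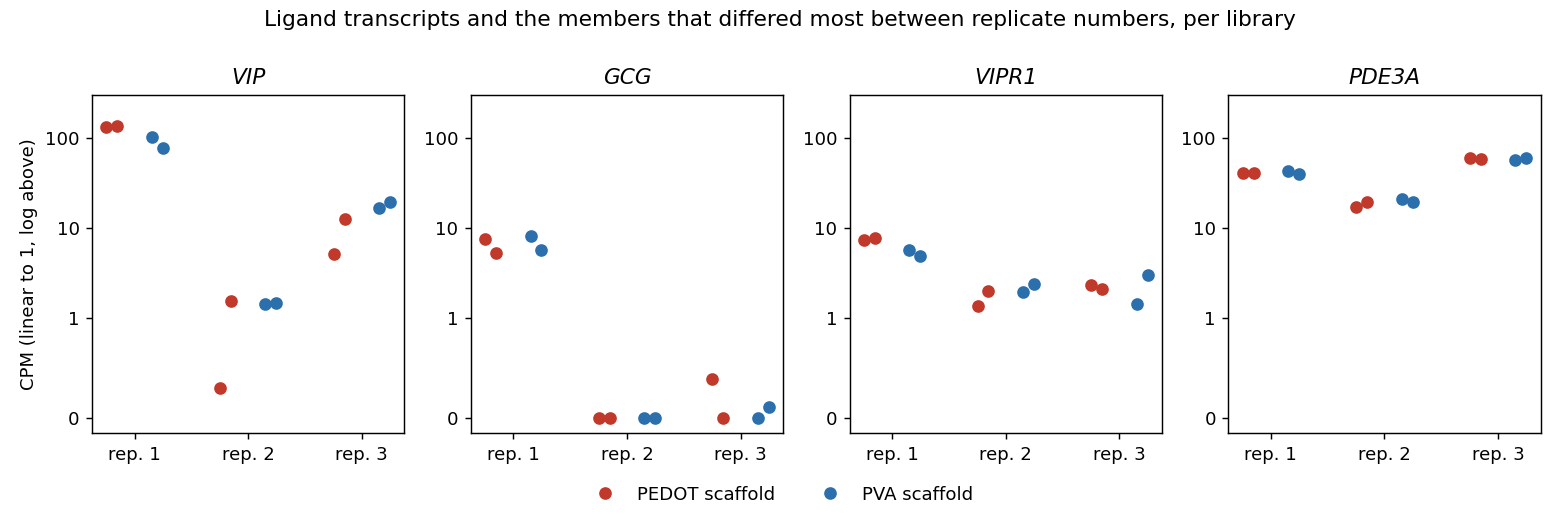
Level in CPM (linear up to 1, log above) of the ligand transcripts VIP and GCG and of VIPR1 and PDE3A in each of the 12 libraries, by replicate number, PEDOT in red left of PVA in blue. VIP reaches 77.9 to 137.0 CPM in replicate 1 and stays at or below 1.58 CPM in replicate 2, GCG is at 0 in all 4 libraries of replicate 2, VIPR1 is highest in replicate 1, and PDE3A is lowest in replicate 2.

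Beside the counts of this list and of those below stand the shares over all genes tested. They were 31.8% for the replicate number, 0.268% for the scaffold with the block and 0% without it. Of 20 genes of ligands, ligand synthesis or vesicular transport (SLC18A3), 9 were tested. None was called for the scaffold, and 5 were called for the replicate number. Beside VIP they included adrenomedullin (ADM), at 48.2, 143.0 and 82.5 CPM on PEDOT and 35.9, 121.2 and 74.7 CPM on PVA. They also included the atrial natriuretic peptide precursor NPPA, at 204.7, 433.5 and 484.4 CPM on PEDOT and 160.5, 557.0 and 647.8 CPM on PVA. Both were lowest in replicate 1 on both scaffolds, and neither peptide is a ligand of a member. NPPB, UCN, UCN2 and PNMT were tested and not called (edgeR adjusted p of 0.0902, 0.126, 0.793 and 0.0941 for the replicate number). Tyrosine hydroxylase (TH), the enzyme that starts noradrenaline synthesis, had no count in any library, and CHAT, which makes acetylcholine, reached at most 4 counts in a library.

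Among 35 other Gs-coupled receptors and their accessory proteins, 21 were tested, none was called for the scaffold with or without the block, and 14 were called for the replicate number. The dopamine receptor DRD1 was 3.51 higher on the log2 scale in replicate 2 than in replicate 1 (edgeR adjusted p = 2.37e-09), and the serotonin receptor HTR4 was 2.01 higher in replicate 3 than in replicate 1. RAMP1, which gives the calcitonin receptor-like receptor its ligand choice, was 1.42 log2 units lower in replicate 2 than in replicate 1 (log2 fold change -1.42). Of 24 Gi-coupled receptors, 20 were tested, none was called for the scaffold and 13 for the replicate number. NPY1R, a receptor of neuropeptide Y, was 1.78 higher on the log2 scale in replicate 2 than in replicate 1, ADRA2B was 1.41 higher, and DRD2 had a log2 fold change of -2.71.

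Behind the receptors, all 20 G protein subunits were tested, with no scaffold call and 12 calls for the replicate number. GNG2, a gamma subunit, had 7.60, 1.94 and 11.1 CPM on PEDOT and 7.82, 2.11 and 10.99 CPM on PVA, the same order as PDE3A. GNAO1 was 1.04 and GNB4 was 0.63 higher on the log2 scale in replicate 3 than in replicate 1. Of the 7 other adenylyl cyclases tested, none was called for the scaffold and ADCY7 alone for the replicate number, lowest in replicate 2 (log2 fold change -0.79 against replicate 1, edgeR adjusted p = 0.00513). Using only the higher-numbered library of each replicate, ADCY7 was not called (edgeR adjusted p = 0.0520). Of 16 other genes tested from the phosphodiesterase list, none was called for the scaffold and 10 for the replicate number. PDE10A and PDE4B were lower in replicate 2 than in replicate 1 (log2 fold changes -1.95 and -0.82), and PDE1A was 2.20 higher.

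Of the 9 protein kinase A genes tested, none was called for the scaffold and the inhibitor PKIA alone for the replicate number (log2 fold change -0.44 for replicate 2 over 1, edgeR adjusted p = 0.00297). Of 14 A-kinase anchors tested, none was called for the scaffold and 8 for the replicate number. SPHKAP was 1.80 higher on the log2 scale in replicate 2 than in replicate 1, while AKAP12 and AKAP13 were lower there (log2 fold changes -1.03 and -0.52). Of 9 other effectors tested, none was called for the scaffold and 5 for the replicate number. The pacemaker channel genes HCN4 and HCN2 were among them, 1.26 and 1.25 higher on the log2 scale in replicate 2 than in replicate 1.

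Among the pathway lists, the blocked fit gave scaffold calls in 3, 2 of 13 genes of receptor desensitisation, 1 of 16 kinase A substrates of the myocyte and 1 of 17 cAMP-induced transcripts tested, and the fit without the block gave none (adjusted p = 0.999986 for each of these 4 genes, edgeR). RGS5 and RGS4, which speed the shut-off of G proteins, were lower on PEDOT. RGS5 had 379.5, 194.5 and 252.9 CPM on PEDOT, against 518.3, 262.4 and 357.3 CPM on PVA, and the blocked log2 fold change was -0.46 ± 0.06 (SE), with an edgeR adjusted p of 0.00795. It is also in the smooth muscle and pericyte marker list, and is 1 of the 2 genes of that list called lower on PEDOT. The RGS5 call was lost without library 3 of PEDOT replicate 1 (edgeR adjusted p = 0.0551) and kept without any other single library.

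RGS4 had 102.8, 28.4 and 49.2 CPM on PEDOT, against 129.9, 35.6 and 67.5 CPM on PVA (log2 fold change -0.37 ± 0.06, edgeR adjusted p = 0.0293), and lay below PVA in all 3 numbers. RRAD, a small GTPase that inhibits the L-type calcium channel, had 38.3, 37.2 and 35.4 CPM on PEDOT, against 26.3, 27.3 and 28.3 CPM on PVA (0.44 ± 0.07, edgeR adjusted p = 0.0272). The RRAD sums of the scaffolds did not overlap, but its libraries did. They read 25.3 and 49.1 CPM on PEDOT against 26.6 and 25.6 CPM on PVA in replicate 1, 42.1 and 32.9 CPM on PEDOT against 27.6 and 27.0 CPM on PVA in replicate 2, and 41.0 and 29.8 CPM on PEDOT against 36.2 and 19.2 CPM on PVA in replicate 3. NR4A1, a nuclear receptor that cyclic AMP induces, had 40.1, 49.4 and 63.6 CPM on PEDOT, against 29.9, 39.5 and 48.4 CPM on PVA (0.38 ± 0.07, edgeR adjusted p = 0.0313). Its libraries overlapped in replicate 3, at 81.6 and 46.0 CPM on PEDOT against 49.9 and 46.7 CPM on PVA. Most of its list went the other way. Of the 17 cAMP-induced transcripts tested, 4 had a log2 fold change above 0 without the block, and the blocked median was -0.05. Of the 12 fits that each left out 1 library, 4 kept the RGS4 call, 5 the RRAD call and 5 the NR4A1 call. The RGS4, RRAD and NR4A1 calls were each lost without either PEDOT library of replicate 1, without library 1 of PEDOT replicate 2, without library 1 of PEDOT replicate 3 and without library 3 of PVA replicate 1. In addition RGS4 was lost without library 3 of PEDOT replicate 3, library 3 of PVA replicate 2 or library 1 of PVA replicate 3, RRAD without library 3 of PVA replicate 2 or 3, and NR4A1 without library 2 of PVA replicate 2 or library 1 of PVA replicate 3. The highest edgeR adjusted p-values over these fits were 0.178 for RGS4, 0.527 for RRAD and 0.556 for NR4A1.

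For the replicate number, 7 of 13 desensitisation genes, 10 of 16 substrates and 11 of 17 cAMP-induced transcripts were called. The receptor kinase GRK5 was 1.01 higher on the log2 scale in replicate 3 than in replicate 1. Among the substrates, the small heat shock protein gene HSPB6 was lower in replicate 2 than in replicate 1 (log2 fold change -2.78), and the calcium channel subunit gene CACNB2 and the myosin binding protein gene MYBPC3 were each 0.68 higher. The immediate early genes FOSB and FOS were 1.99 and 1.20 higher on the log2 scale in replicate 3 than in replicate 1.

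By their pattern over the 12 libraries, the members had different nearest genes among those with a mean of at least 5 CPM. The libraries share replicates, depth and cell makeup, so these correlations are descriptions. The gene most like GLP1R was SLC27A6, a fatty acid transport protein (Pearson r = 0.96, n = 12 libraries), followed by AC241952.2 (0.92). SLC27A6 had 12.6, 21.4 and 10.9 CPM on PEDOT and 8.40, 16.03 and 8.93 CPM on PVA, so it too was highest in replicate 2 and higher on PEDOT in each number. VIPR2 was nearest to SHISA4 (0.94) and the water channel gene AQP1 (0.89), and VIPR1 to the transcription factor gene MAF (0.96) and to TENM3 (0.96). ADRB1 was nearest to MICALL1 (0.91) and SLC25A25 (0.85), and CHRM2 to LRRTM4 (0.97) and POGLUT3 (0.97). For the cyclases these were FAM222A (0.93) and NME4 (0.93) with ADCY5, and ETS2 (0.93) and ADAMTS7P3 (0.93) with ADCY6. PDE3A was nearest to NYNRIN (0.99) and GNG2 (0.99), and PDE4D to FAM110C (0.91) and SCAPER (0.90). Among the members, CHRM2 and PDE3A were the most alike (r = 0.91), while VIPR1 and ADCY5 (-0.86) and GLP1R and PDE3A (-0.76) ran opposite to each other over the 12 libraries.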

How the data were processed

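Raw counts per gene, which the authors deposited without normalization, came from ribodepleted total RNA. Per the file headers, counting used featureCounts 2.0.1, paired and reversely stranded, on GENCODE 33, and the command carries no setting to count reads that match several places or genes. The submitters' processing notes name STAR and hg38, with no aligner version. No column of other samples was present (0). No member shares exon bases with a gene on its own strand.

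The counts of the 2 technical libraries, which differed by more than sampling noise, were summed per biological replicate, the unit of every test. filterByExpr (minimum count 10, total 15) left 21298 genes. TMM-scaled counts were tested over all of them in edgeR 4.0.16 (R 4.3.3), with DESeq2 1.42.0 as an alternative. Deviations from the scaffold mean correlated at 0.68, 0.70 and 0.50 between sums of the same number, above the minimum of 0.1. The blocked fits therefore treated samples of the same number as pairs, which the labels do not state. CPM per kb divides by merged exon length, and a prior count of 2 went into log2 CPM. Intervals cover the fit's error.

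Members, lists and tests were chosen with earlier results of these data known. Named genes are all members, up to 3 genes of smallest p per pathway list among those called (mean CPM of 1 or more), and the 2 genes most correlated with each member. Some results under these rules are not reported here.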

Additional observations from a re-analysis of the deposited data

How the results depend on the processing

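With the replicate block the scaffold count was 57 genes, against 0 without the block. Without the block it stayed at 0 under DESeq2, DESeq2 size factors, both gene filters, either set of technical libraries and leaving out any single replicate. With the replicate block it was 96 with DESeq2, 55 with DESeq2 size factors in edgeR, 389 with every gene with a count, 14 with a mean CPM of 1 or more, 16 with the lower-numbered and 4 with the higher-numbered technical libraries, 170, 22 and 284 without replicate 1, 2 and 3 (without replicate 3 the prior df was infinite, so all genes of a level shared 1 spread), and 4 to 73 over the 12 fits without 1 library. The GLP1R call (edgeR adjusted p = 0.0390) held with the block under DESeq2 (0.00434), size factors (0.0415) and every gene (1.85e-06), and was lost with the CPM filter (0.127) and with the lower-numbered (0.0715) or higher-numbered libraries (0.296). The VIPR2 call (0.0262) held under the same 3 (0.00267, 0.0286 and 2.15e-04) and was lost in the same others (0.0541, 0.303 and 0.149). These blocked alternatives were chosen after seeing the data. The cause was not tested.

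Uncalled log2 fold changes near 0 changed sign in some fits, all of them uncalled there too. Over the fits that left out a replicate or library, VIPR1 ran from -0.73 (without PEDOT replicate 1) to 0.79, CHRM2 from -0.19 to 0.054 (without PVA replicate 3), ADCY5 from -0.13 to 0.11 (without PEDOT replicate 1) and PDE3A from -0.45 to 0.34 (without PVA replicate 3). With the block VIPR1 was -0.18 without replicate 1 and ADCY5 0.0083 without replicate 3. With the higher-numbered libraries ADCY5 was 0.070 (0.067 with the block) and PDE3A 0.0024 (0.0054 with the block). ADRB1, replicate 2 over 1, was 0.0060 with the lower-numbered libraries and ran from -0.13 to 0.0079 without 1 library.

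Replicate number counts were 4971 to 7702 (6776 as reported), and the 6 members called kept their calls in all 17 alternatives. VIPR2 was also called in 3 of those 17. No member library stood far from the other 5 of its scaffold in 18 groups tested. That rule takes the gap to the next library, so 2 libraries of 1 replicate that are extreme together go unflagged. The VIPR1 libraries of PEDOT replicate 1 (7.39 and 7.79 CPM, against 1.38 to 2.33 CPM in the other PEDOT libraries) are such a case. VIPR1, at 32 to 232 counts a library, has the least depth of the members.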
